A study of Mus musculus with 12 samples.

Results

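The 10 genes described here encode the core of the ATR and ATM checkpoint: the kinase Atr and its partner Atrip, the activator Topbp1, the clamp subunit Hus1, the clamp loader subunit Rad17, the mediator Clspn, the effector kinase Chek1, the kinase Atm, its effector Chek2, and Wee1, a kinase that restrains the cyclin-dependent kinases. They were chosen by name, matched to the gene symbols deposited with the data and joined by gene identifier to the estimated read counts of 12 libraries. All 10 of the 45792 genes listed were found, and all 10 passed the filter on low counts that left 15706 genes for testing. The RNA came from primary cultures of mouse neural stem cells (NSCs), prepared from the forebrain of newborn pups and grown without serum in medium with EGF and FGF. There were 3 groups of 4 libraries. WT cultures came from untreated C57BL/6J pups. Ncf1-/- cultures lack Ncf1, a cytosolic subunit that activates NADPH oxidases, in every cell of the animal, and the mice had been backcrossed to C57BL/6J. They received vehicle or recombinant mouse Igfbp2, a secreted protein that binds insulin-like growth factors. The labels give 100 ng/ml Igfbp2, and the study's methods give a lower dose. Treatment began 48 h after plating and RNA was taken 48 h later. The comparisons ask whether checkpoint transcripts differ without Ncf1, and whether added Igfbp2 moves them.

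In dividing cells, stretches of single-stranded DNA at stalled or damaged replication forks become coated with the protein RPA, which brings Atr to the site through Atrip. Rad17 loads a ring-shaped clamp that contains Hus1, Topbp1 then activates Atr, and Clspn lets Atr phosphorylate Chek1. Double-strand breaks act mainly through Atm, which phosphorylates Chek2. Both arms slow entry into mitosis by holding back the Cdc25 phosphatases, and Wee1 acts to the same end by phosphorylating Cdk1. Neural progenitors divide fast and depend on this system, and several of its genes are transcribed mostly in S and G2 phase.

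Positions are from the GENCODE M21 annotation of GRCm38, the build named in the submitters' processing notes. On chromosome 9 lie 5 of the 10 genes: Chek1 (chr9:36708482-36727065, minus strand), Atm (chr9:53439149-53536740, minus), Atr (chr9:95857597-95951781, plus), Topbp1 (chr9:103305215-103350428, plus) and Atrip (chr9:109057933-109074124, minus). The others are Clspn (chr4:126556935-126593903, plus), Chek2 (chr5:110839979-110874145, plus), Wee1 (chr7:110122046-110143286, plus), Hus1 (chr11:8993137-9011191, minus) and Rad17 (chr13:100617164-100651051, minus). Whether reads were counted by strand is not given in the sources used here. Of the exon bases of Trex1, an exonuclease gene on the same strand as Atrip, 100% are shared with Atrip exons, so reads there could be split between the genes. Trex1 had 43 to 138 counts per library and Atrip 209 to 414. Antisense transcripts share 726 and 462 exon bases with Atr, and Ak6 shares 73 with Rad17 on the opposite strand.

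Promoter sequence was examined because several members moved together. RefSeq windows of 300 bases (250 before and 50 after the start site, GRCm38.p6) were matched for 9 of the 10 genes, all but Wee1. The windows were searched on both strands for E2F-type letters (TTTCCCGC, TTTGGCGC, TTTCGCGC or TTTGCCGC), for the cell cycle element CHR (TTTGAA) and for CCAAT. E2F-type letters were in 3 of the 9 windows and in 2.26% of 32851 windows over all genes. They began 152 bases before the start site in Chek2, 129 bases before it in Topbp1 and at base 22 after it in Clspn. CHR letters were in 1 of the 9 windows (Hus1) and in 17.9% of all windows, and CCAAT was in 4 of the 9 and in 37.4%. A match of letters is a description and not a binding site. Shown are the parts of the windows before the first annotated base of the gene for Chek2 (chr5:110839733-110839978, plus strand) and Topbp1 (chr9:103305077-103305214, plus), 2 members higher in Ncf1-/- cultures, and for Hus1 (chr11:9011192-9011441, minus), the member that was lower. Capitals mark E2F-type letters in Chek2 and Topbp1 and CHR letters in Hus1, each on the strand opposite to the search letters.
Chek2: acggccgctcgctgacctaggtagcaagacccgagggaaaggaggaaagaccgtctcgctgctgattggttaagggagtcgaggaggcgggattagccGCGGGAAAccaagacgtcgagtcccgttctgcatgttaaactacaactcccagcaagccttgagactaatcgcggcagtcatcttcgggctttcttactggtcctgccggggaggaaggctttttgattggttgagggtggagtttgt
Topbp1: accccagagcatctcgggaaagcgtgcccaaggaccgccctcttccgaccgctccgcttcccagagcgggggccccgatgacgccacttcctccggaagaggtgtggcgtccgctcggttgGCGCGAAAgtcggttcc
Hus1: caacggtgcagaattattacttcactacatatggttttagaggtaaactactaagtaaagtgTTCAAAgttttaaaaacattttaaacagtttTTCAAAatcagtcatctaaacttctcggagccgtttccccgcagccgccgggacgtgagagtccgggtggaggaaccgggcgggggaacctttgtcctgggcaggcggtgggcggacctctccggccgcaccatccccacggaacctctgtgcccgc

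The libraries held 18201622 to 34086554 estimated counts. Ncf1 itself had 1 to 7 counts in each of the 12 libraries, WT included, so its transcript was too rare here to check the genotype. Y-linked genes (summed over Ddx3y, Eif2s3y, Kdm5d and Uty) stood at 105.3 to 115.5 CPM (counts per 1000000 counts, scaled as described below) in vehicle-treated libraries and at 7.79 to 9.18 CPM in Igfbp2-treated libraries, although the study describes vehicle and Igfbp2 cultures as pairs from the same animals. Treatment and Y-linked expression therefore cannot be told apart. Among WT libraries, replicates 1 to 3 had 106.8 to 118.3 CPM and replicate 4 had 6.46 CPM, and a supplementary sheet of the study lists replicate 4 under another treatment, so results are also given without it. Cell type markers differed by genotype. The 8 oligodendrocyte markers summed to 1653 to 9686 CPM in WT (lowest in replicate 3) and to 214.8 to 297.2 CPM in Ncf1-/- libraries, where Mag was at most 0.621 and Mog at most 0.0665 CPM as a group mean. The 6 astrocyte markers summed to 5830 to 11396 CPM in WT and 2272 to 3350 CPM in Ncf1-/- libraries, and the 8 neuron markers to 602.9 to 775.9 CPM in WT and 438.9 to 553.2 CPM in Ncf1-/- libraries. In WT these sums were mostly Gfap (mean 5474.4 CPM) and Map2 (568.7 CPM). Of each list, 5 markers were lower than in WT with vehicle, the rest not called. With Igfbp2 5 of each were lower, and Aldh1l1 and Gad1 were higher (log2 fold changes 1.26 and 0.41). All 10 neural stem cell markers were detected, and between vehicle-treated Ncf1-/- and WT cultures 3 were higher (Nes, Fabp7 and Hes1) and 6 lower (among them Sox2, Sox9, Msi1 and Hes5, at log2 fold changes of -0.97, -0.95, -0.94 and -1.23). Their sum, 3648 to 9642 CPM in WT and 8690 to 9483 CPM in Ncf1-/- libraries, was mostly Vim and Fabp7 in Ncf1-/- cultures. Of 8 microglia markers 2 passed the filter, at a sum of at most 1.77 CPM. The part of these cell types in the results below was not tested. In bulk RNA, more cells of a type and more RNA per cell cannot be told apart.

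Levels of different members were compared per transcript length, as TPM, which gives each transcript its share of a fixed total. In WT cultures, Topbp1 was the most abundant at 9.29 ± 0.865 TPM (SD, n = 4), followed by Hus1 at 7.87 ± 0.932 TPM, and these neighbours overlapped. Atrip (4.92 ± 0.137 TPM) and Rad17 (4.76 ± 0.470 TPM) came next and also overlapped. The effector kinases stood lower, with Chek2 at 3.87 ± 0.334, Wee1 at 2.70 ± 0.422 and Chek1 at 1.86 ± 0.608 TPM. Atm (2.92 ± 0.533 TPM) and Clspn (2.90 ± 0.798 TPM) lay among them, and Atr was lowest at 1.60 ± 0.0846 TPM. Along this order, only the steps from Hus1 to Atrip and from Rad17 to Chek2 separated all 4 libraries of a gene from all 4 of the next. Atr, at the head of its arm, was thus the least abundant member per length, although it overlapped Chek1.

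The order differed in the Ncf1-/- cultures. In vehicle-treated libraries Topbp1 (23.1 ± 3.99 TPM) was above every other member in each library, and Chek2 (10 ± 0.487 TPM), Wee1 (8.57 ± 2.03 TPM), Clspn (7.35 ± 2.09 TPM) and Chek1 (6.58 ± 1.04 TPM) came before Hus1 (6.48 ± 1.39 TPM). From Chek2 down to Atr (2.34 ± 0.665 TPM), each gene overlapped its neighbour. With Igfbp2, Topbp1 (13.3 ± 4.67 TPM) again came first, then Wee1 (7.68 ± 1.99 TPM), Chek2 (6.69 ± 1.20 TPM) and Clspn (6.22 ± 2.43 TPM), and Atr was last at 1.33 ± 0.375 TPM, with no overlap with Atm (2.53 ± 0.981 TPM). TPM values depend on all other transcripts of a library, and levels are compared between groups below as CPM scaled by TMM, which sets the middle of the gene distribution equal between libraries.

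**Figure D1:**
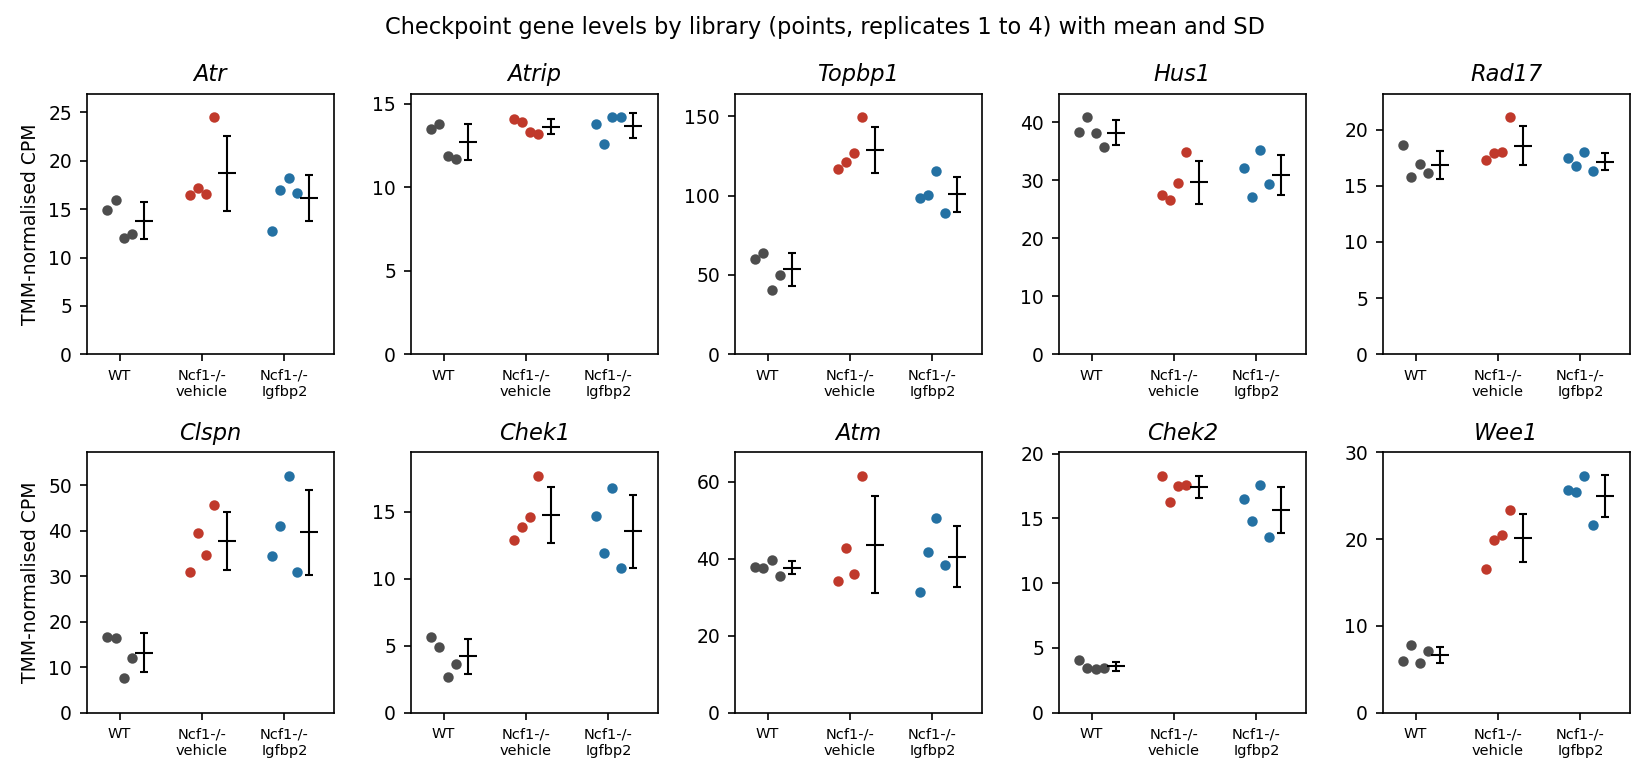
Levels of the 10 checkpoint genes in each library (vertical axes, TMM-normalised CPM, each starting at 0), with WT in grey, vehicle-treated Ncf1-/- in red and Igfbp2-treated Ncf1-/- in blue. Points are the 4 libraries of a group in order of replicate, and the black mark is the mean with its SD. Topbp1, Clspn, Chek1, Chek2 and Wee1 are higher in all 8 Ncf1-/- libraries than in any WT library, and Hus1 is lower.

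Without Ncf1, 7 of the 10 members differed from WT at an adjusted p under 0.05 in edgeR's quasi-likelihood test (Benjamini-Hochberg over 15706 genes). Of these, 6 rose (Atr, Topbp1, Clspn, Chek1, Chek2 and Wee1) and Hus1 fell, while Atrip, Rad17 and Atm did not pass. In the same comparison 57.2% of all genes passed, 28.9% as higher and 28.2% as lower, so the share of members called is not far from that of all genes, and the count as higher is above it. The median log2 fold change was 0.85 over the members and 0.02 over all genes. Over all genes, 4545 were called higher and 4433 lower, and with library totals 6024 and 3159. The 7 called members did not overlap between the groups, and 51.2% of all genes did not overlap.

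Topbp1, which activates Atr, had 60.1, 63.7, 40.6 and 49.7 CPM in WT replicates 1 to 4, and 116.7, 121.5, 126.7 and 149.5 CPM in vehicle-treated replicates 1 to 4. The lowest vehicle-treated library stood well above the highest WT library. The 2.41-fold difference (log2 fold change 1.27, SE 0.14) had an edgeR adjusted p = 6.26e-06.

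Clspn, the adaptor that bridges Atr and Chek1, was at 16.7, 16.4, 7.57 and 12.1 CPM in WT and at 30.9, 39.5, 34.7 and 45.6 CPM in vehicle-treated replicates 1 to 4. Its WT values varied more than 2-fold, with replicate 3 lowest, and none reached the vehicle-treated values. This came to 1.52 on the log2 scale (SE 0.23, edgeR adjusted p = 0.000104).

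Chek1, the kinase that carries the Atr signal to the cell cycle, measured 5.64, 4.91, 2.67 and 3.62 CPM in WT against 12.9, 13.9, 14.6 and 17.7 CPM with vehicle. These WT values rest on 65 to 124 counts per library, and again no WT library came near a vehicle-treated library. Reads of Chek1 were 3.55-fold higher (log2 fold change 1.83, SE 0.22), with an edgeR adjusted p = 1.24e-05.

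Atr itself was at 14.9, 15.9, 12 and 12.4 CPM in WT and at 16.5, 17.2, 16.6 and 24.5 CPM in vehicle-treated replicates 1 to 4. The groups did not overlap, but the gap between them was narrow and vehicle-treated replicate 4 lay apart from the other three. Atr differed by 0.44 on the log2 scale (SE 0.15), at an edgeR adjusted p = 0.0265. The call was lost without vehicle-treated replicate 4 (0.24, adjusted p = 0.15), without WT replicate 4 (0.36, adjusted p = 0.0994), without WT replicate 3 (0.38, adjusted p = 0.0595) and without Igfbp2-treated replicate 2 (0.41, adjusted p = 0.0551).

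The partner and the loader of the arm gave small differences. Atrip, which binds Atr and RPA-coated DNA, had 11.7 to 13.8 CPM in WT and 13.2 to 14.1 CPM with vehicle, a log2 fold change of 0.10 (95% interval -0.08 to 0.29, edgeR adjusted p = 0.318). Rad17 had 15.8 to 18.6 CPM in WT and 17.3 to 21.1 CPM with vehicle, with 0.14 (95% interval -0.05 to 0.33, edgeR adjusted p = 0.186). Both groups overlapped for either gene. With library totals in place of TMM, a scaling that moves the median of all genes to 0.19, both passed (Atrip 0.28, adjusted p = 0.0152, and Rad17 0.32, adjusted p = 0.0137). The study's own kind of test, a one-way model on TPM with Tukey's comparisons, also called Atrip higher (0.34, adjusted p = 0.0194). That model called 5 members in this comparison, all higher (Atrip, Topbp1, Chek1, Chek2 and Wee1), where 15.5% of all genes passed and 8.15% were higher.

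Hus1, the clamp subunit, went the other way. Its values were 38.3, 40.9, 38.1 and 35.7 CPM in WT and 27.5, 26.7, 29.6 and 34.9 CPM in vehicle-treated replicates 1 to 4, so that all WT libraries were higher but replicate 4 of each group nearly met. On the log2 scale this was -0.36 (SE 0.10, edgeR adjusted p = 0.00755). With library totals it was -0.18 (adjusted p = 0.188) and did not pass.

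The ATM arm split between kinase and effector. Atm was at 37.8, 37.7, 39.6 and 35.5 CPM in WT and at 34.2, 42.9, 36.1 and 61.6 CPM in vehicle-treated replicates 1 to 4. Only vehicle-treated replicate 4 was far above WT, and the groups overlapped. On the log2 scale the difference was 0.21 (95% interval -0.17 to 0.59, edgeR adjusted p = 0.317), and it was -0.04 without that replicate.

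Chek2, the effector of Atm, had the largest fold change of the 10 members in reads. Per length, its log2 ratio of mean TPM was 1.37, below Chek1 at 1.82 and Wee1 at 1.67. It stood at 4.09, 3.45, 3.36 and 3.45 CPM in WT (62 to 117 counts) and at 18.3, 16.3, 17.5 and 17.6 CPM with vehicle (336 to 472 counts), with little spread within each group. In reads this was 4.86-fold (log2 fold change 2.28, SE 0.11), with an edgeR adjusted p = 1.83e-08.

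Wee1 was at 5.96, 7.77, 5.74 and 7.07 CPM in WT and at 16.6, 19.9, 20.5 and 23.4 CPM with vehicle. The groups lay far apart relative to their spread. Wee1 was 3.05-fold higher (log2 fold change 1.61, SE 0.13), at an edgeR adjusted p = 6.25e-07.

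**Figure D2:**
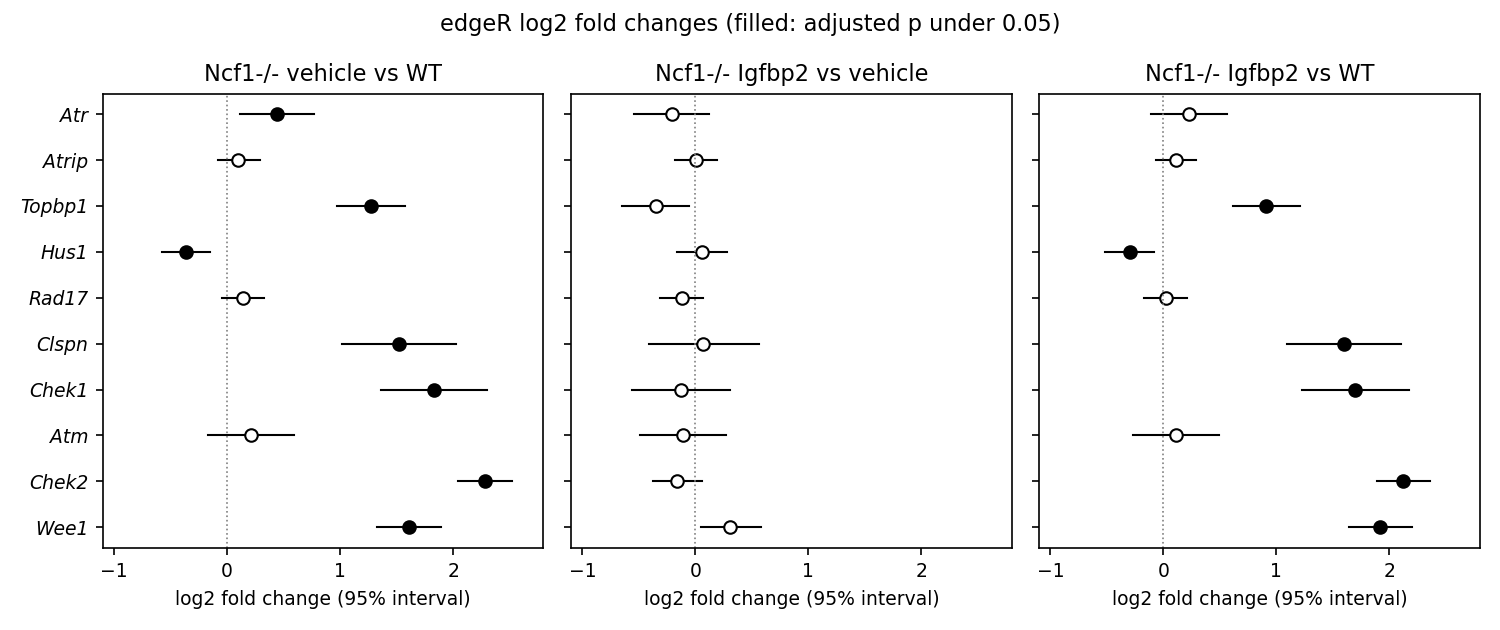
log2 fold changes (horizontal axes) of the 10 members in the 3 comparisons, from edgeR, with lines for the 95% interval and filled points for an adjusted p under 0.05. For Ncf1-/- with vehicle against WT, 7 points are filled and Chek2 is highest at 2.28, for Igfbp2 against vehicle none is filled, and for Igfbp2 against WT 6 are filled.

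Within a library, the ratio of a kinase to its effector does not depend on the scaling between libraries. The log2 ratio of Chek1 to Atr reads was -1.76 ± 0.32 (SD, n = 4) in WT, -0.33 ± 0.12 with vehicle and -0.26 ± 0.39 with Igfbp2, and all WT libraries (highest -1.40) were below all Ncf1-/- libraries (lowest -0.63). The log2 ratio of Chek2 to Atm reads was -3.39 ± 0.15 in WT, -1.29 ± 0.41 with vehicle and -1.36 ± 0.29 with Igfbp2, again without overlap between genotypes in reads. Read ratios are not corrected for transcript length. Mean lengths were 836 bases in WT and 1477 bases with vehicle for Chek2, and 9574 and 8214 bases for Atm. Per length the genotypes overlapped, since Chek2 to Atm was 10.1 to 7.67 TPM in vehicle-treated replicate 4 and 3.54 to 2.44 TPM in WT replicate 1. The log2 ratio of Atr to Atrip reads was 0.12 ± 0.08 in WT (0.02 to 0.21), 0.43 ± 0.31 with vehicle (0.23 to 0.89) and 0.23 ± 0.25 with Igfbp2 (-0.12 to 0.44), so that vehicle-treated libraries lay just above WT and Igfbp2-treated libraries overlapped both. These ratios are given as a description, without a test, since they restate the differences above.

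The reads of Chek2 were also assigned to longer transcript models in Ncf1-/- cultures. The files give, for each gene and library, the mean length of its transcripts weighted by their estimated abundance. For Chek2 this was 898, 836, 821 and 791 bases in WT, 1413, 1306, 1525 and 1662 bases in vehicle-treated and 1478, 1527, 1522 and 1197 bases in Igfbp2-treated replicates 1 to 4. All 8 Ncf1-/- libraries exceeded all WT libraries. Among the 10642 tested genes with more than 1 transcript, 9.73% did not overlap in mean length between vehicle-treated and WT libraries, and among the 9 such members 2 did not (Chek2, and Atrip, which was shorter at 1721 to 1931 against 1943 to 2129 bases). GENCODE M21 holds the 6 Chek2 transcripts of the files at 328 to 2276 bases, of which Chek2-201, a protein-coding transcript, is the longest. The annotation behind the files differs from M21 in places, since Wee1 has 1 transcript of 1941 bases in the files and of 3419 bases in M21. Per length, Chek2 was at 3.54 to 4.18 TPM in WT, 9.38 to 10.6 TPM with vehicle and 5.82 to 8.43 TPM with Igfbp2. The log2 ratio of the mean TPM between vehicle and WT was 1.37, against 2.28 for reads, so the size of the Chek2 difference depended on whether reads or length-corrected levels were compared. The weighted length is itself an estimate from 62 to 117 reads per WT library.

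**Figure D3:**
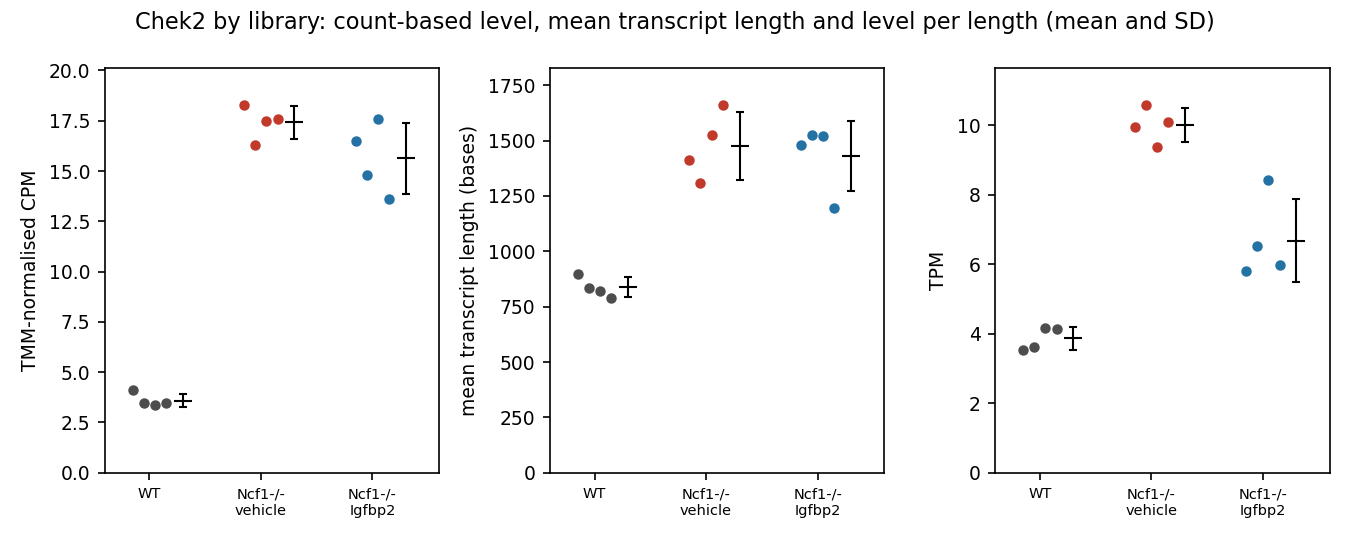
Chek2 in each library (horizontal axis, group) as TMM-normalised CPM (left), mean transcript length in bases (middle) and TPM (right), all axes starting at 0, with the 4 libraries as points and the mean with its SD in black. The mean length is 791 to 898 bases in WT and 1197 to 1662 bases in the 8 Ncf1-/- libraries.

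Between Igfbp2-treated and vehicle-treated Ncf1-/- cultures, 0 of the 10 members passed in edgeR, while 25.0% of all genes did. At an unadjusted p under 0.05 there were 2 (Topbp1 and Wee1), DESeq2 called 0 of the members and 27.4% of all genes, and voom with sample quality weights called 3 members (Topbp1 and Chek2 as lower, Wee1 as higher) and 49.3% of all genes. The median log2 fold change was -0.11 over the members and 0.04 over all genes. Log2 fold changes were above 0 for 4 members and below 0 for 6.

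Topbp1 had 98.7, 100.2, 115.4 and 89.0 CPM in Igfbp2-treated replicates 1 to 4, and every one of these libraries was below every vehicle-treated library. Its log2 fold change was -0.35 (95% interval -0.65 to -0.06, edgeR adjusted p = 0.0755). It was the only member without overlap, and 34.1% of all genes did not overlap in this comparison. With the replicate number as a block in the Ncf1-/- libraries alone, Topbp1 passed (-0.40, adjusted p = 0.0166), as it did in those 2 groups without the block (-0.40, adjusted p = 0.00722), without WT replicate 2 (-0.39, adjusted p = 0.0494) and without WT replicate 3 (-0.35, adjusted p = 0.0269). Y-linked expression differed between same-numbered libraries, so the block may not join cultures of the same animal.

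Wee1 was at 25.6, 25.4, 27.3 and 21.6 CPM with Igfbp2, where 3 of the 4 libraries lay above all vehicle-treated libraries. Its log2 fold change was 0.31 (95% interval 0.05 to 0.58, edgeR adjusted p = 0.0795). Without vehicle-treated replicate 4 it passed, at 0.41 (adjusted p = 0.0332). Wee1 and Topbp1 thus had estimates of opposite sign.

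The other 8 members overlapped between treatments. Chek2 was at 16.5, 14.8, 17.6 and 13.6 CPM with Igfbp2 (log2 fold change -0.16, 95% interval -0.37 to 0.06), and Chek1 at 14.7, 11.9, 16.8 and 10.8 CPM (-0.13, 95% interval -0.56 to 0.31). Clspn had the widest interval, with 34.4, 41.1, 52.1 and 30.9 CPM (0.07, 95% interval -0.41 to 0.56). These intervals leave room for differences in either direction. Atr was at 12.7, 17.0, 18.2 and 16.7 CPM (-0.21, 95% interval -0.54 to 0.12) and Atm at 31.3, 41.8, 50.5 and 38.5 CPM (-0.11, 95% interval -0.49 to 0.27). Intervals were narrower for Rad17 (-0.12, -0.31 to 0.07), Hus1 (0.06, -0.16 to 0.28) and Atrip (0.01, -0.18 to 0.19), with 16.3 to 18.0, 27.2 to 35.2 and 12.6 to 14.2 CPM with Igfbp2.

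Calls between treatments depended on the scaling. With library totals the median of all genes moved to -0.23 and 5 members passed as lower (Atr, Atrip, Topbp1, Rad17 and Chek2), where 33.5% of all genes were called lower (648 higher and 5258 lower, in place of 2238 and 1685 with TMM). On log2(TPM + 1) with limma, the median of all genes was -0.30 and 7 members passed as lower (the same 5 with Hus1 and Chek1), where 39.2% of all genes were called lower. On log2(TPM + 0.1) 6 passed as lower, where 40.5% of all genes were called lower. The one-way model on TPM called 2 members lower (Atrip and Chek2) at a median of -0.43 over its 27880 genes, where 7.48% were called lower. The median of the members minus the median of all genes was -0.15 with TMM, -0.15 with library totals, -0.21 on log2(TPM + 1) and -0.15 in the one-way model. Wee1 had a log2 fold change of -0.15 on log2(TPM + 1), the opposite sign to its value with TMM. With Y-linked expression as a covariate, 0 members and 0.0318% of all genes passed. This covariate nearly coincides with treatment in the Ncf1-/- libraries, so few calls could be left and the count decides nothing about treatment.

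Igfbp2-treated Ncf1-/- cultures still differed from WT in 6 of the 10 members, where 62.4% of all genes passed, 31.6% as higher and 30.8% as lower. Topbp1 (0.91, SE 0.14, edgeR adjusted p = 8.33e-05), Clspn (1.60, SE 0.23, adjusted p = 6.96e-05), Chek1 (1.70, SE 0.22, adjusted p = 2.2e-05), Chek2 (2.12, SE 0.11, adjusted p = 2.4e-08) and Wee1 (1.92, SE 0.13, adjusted p = 1.51e-07) were higher. Hus1 was lower (-0.30, SE 0.10, adjusted p = 0.0193), and lost this call with the Y-linked covariate (-0.22, adjusted p = 0.265) and with no filter (-0.28, adjusted p = 0.0544). The covariate is low in all Igfbp2-treated libraries and in WT replicate 4 alone among WT, so that first loss cannot be assigned to Y-linked expression. Topbp1 lost its call on log2(TPM + 1) (0.42, adjusted p = 0.0868) and on log2(TPM + 0.1) (0.45, adjusted p = 0.0823). None of the 6 overlapped with WT, and 54.3% of all genes did not overlap with WT either. Atr, at 0.23 (95% interval -0.11 to 0.56), was not called, and Atrip (0.11), Rad17 (0.02) and Atm (0.11) were not either. This comparison shares its libraries with the other 2 and adds no independent evidence on the genotype. In the one-way model on TPM 3 members passed (Chek2 and Wee1 as higher, Hus1 as lower), where 20.1% of all genes did (965 higher and 4627 lower, in place of 4964 and 4837 with TMM).

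Other genes of the pathway were taken from lists written with earlier results of these data known. Their counts stand beside the share of all genes called. That share was 57.2% for vehicle against WT, 25.0% for Igfbp2 against vehicle and 62.4% for Igfbp2 against WT. Of the clamp and clamp loader genes, 8 of 9 were tested, and 5 rose between vehicle-treated Ncf1-/- and WT cultures with none lower (median log2 fold change 0.59, against 0.02 over all genes). These were the loader subunits Rfc4 (1.73, SE 0.15, edgeR adjusted p = 1.1e-06), Rfc5 (1.60), Rfc3 (1.38) and Rfc2 (0.94), which also load the replication clamp PCNA, and Rhno1 (0.24), which binds the checkpoint clamp. The clamp partners of Hus1 did not pass, with Rad9a at 0.23 (adjusted p = 0.0837) and Rad1 at 0.14 (adjusted p = 0.253). All 6 genes of RPA and fork protection rose (median 1.09), led by Timeless (1.48, SE 0.17, edgeR adjusted p = 8.43e-06), which travels with the fork, and the RPA subunit Rpa2 (1.27, SE 0.13, adjusted p = 3.71e-06). With Igfbp2 against vehicle 1 of these passed, Etaa1, which activates Atr apart from Topbp1 (-0.69, SE 0.12, edgeR adjusted p = 0.00218), at 17.9 CPM with vehicle, 11.1 CPM with Igfbp2 and 12.4 CPM in WT.

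Among 9 genes that sense and mark breaks upstream and downstream of Atm, 7 rose and 2 fell between vehicle-treated Ncf1-/- and WT cultures (median 0.43). Of all genes, 28.9% were called higher and 28.2% lower there. The largest rises were in H2afx (1.62, SE 0.15, edgeR adjusted p = 1.95e-06), the histone that is phosphorylated at breaks, and in Mdc1 (0.86, SE 0.17, adjusted p = 0.000637), which reads that mark. These are transcript levels and do not measure the mark. By immunoblot, the study reports less of the phosphorylated histone in Ncf1-/- than in WT NSCs. Trp53bp1 (-0.55, adjusted p = 0.00016) and the ubiquitin ligase Rnf8 (-0.20, adjusted p = 0.038) fell. With Igfbp2 against vehicle 1 of the 9 passed, the acetyltransferase Kat5 (-0.38, edgeR adjusted p = 0.0125).

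Among the 5 pathway lists, the control of cyclin-dependent kinases had the highest median in this comparison. Its 10 genes all rose in vehicle-treated Ncf1-/- cultures (median 1.70), where 28.9% of all genes were called higher. Cdk1, the mitotic kinase, was at 2.42 (SE 0.17, edgeR adjusted p = 2.07e-07) and its cyclin Ccnb1 at 2.22 (SE 0.21, adjusted p = 1.94e-06). Wee1 (1.61) therefore rose beside the kinase that it inhibits and beside the phosphatases that oppose it, Cdc25b (1.64) and Cdc25c (2.11), which are named here after their values were seen. With Igfbp2 against vehicle 1 of the 10 passed, Cdc7, a kinase that fires replication origins (-0.52, SE 0.15, edgeR adjusted p = 0.0283), and with single libraries left out this count was 0 in 7 of 12 cases (any vehicle-treated library, or Igfbp2-treated replicate 1, 2 or 4) and 3 without Igfbp2-treated replicate 3.

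The p53 arm was mixed. Of 6 genes, 3 rose and 1 fell between vehicle-treated Ncf1-/- and WT cultures (median 0.17), a share near the 57.2% of all genes called. Cdkn1a, the inhibitor of cyclin-dependent kinases that p53 induces (1.44, SE 0.22, edgeR adjusted p = 9.11e-05), Trp53 (0.42, adjusted p = 0.000499) and Mdm4 (0.22, adjusted p = 0.0406) rose, and Gadd45a fell (-0.62, adjusted p = 0.0123). With Igfbp2 against vehicle, Cdkn1a rose (1.06, SE 0.21, edgeR adjusted p = 0.00477), from 137.8 to 287.7 CPM as group means, Gadd45a rose (0.60, adjusted p = 0.0343) and Mdm4 fell (-0.40, adjusted p = 0.00673). Gadd45a lost its call in 10 of the 12 cases with a library left out (adjusted p up to 0.11), each of the 8 Ncf1-/- libraries among them, while Cdkn1a and Mdm4 passed in all 12. Against WT, Igfbp2-treated cultures had 2 of the 6 called, Cdkn1a (2.50) and Trp53 (0.53), both higher. In the same comparison the counts of the other lists were 4 of 8 for the clamp and loader genes (Rfc2 to Rfc5), 5 of 6 for RPA and fork protection (all but Etaa1) and 10 of 10 for kinase control, all higher, and 6 higher with 2 lower of 9 for the break genes. Of all genes, 62.4% were called in it, 31.6% as higher and 30.8% as lower.

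Proliferation markers moved with the genotype. All 14 (among them Mki67, Top2a and the Mcm2 to Mcm7 helicase genes) were higher in vehicle-treated Ncf1-/- than in WT cultures, with log2 fold changes of 1.25 to 2.43 and a median of 1.67, where 28.9% of all genes were called higher. None passed between treatments (median -0.18), where 25.0% of all genes did. Their summed level was 507.3 to 881.7 CPM in WT (lowest in replicates 3 and 4), 1966 to 2593 CPM with vehicle (highest in replicate 4) and 1804 to 2338 CPM with Igfbp2. Vehicle-treated replicate 4 was also the highest of its group for 8 of 10 members and Igfbp2-treated replicate 3 for 9, and the lowest libraries were WT replicate 3 for 6 members, vehicle-treated replicate 1 for 7 and Igfbp2-treated replicate 4 for 6. The part of the number of dividing cells in the member differences was not tested.

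Relative to this sum, 1 member was higher in vehicle-treated than in WT cultures, 3 overlapped and 6 were lower. The log2 ratio to the summed proliferation markers differed by -0.13 for Clspn, 0.17 for Chek1 and -0.09 for Wee1 between vehicle-treated and WT cultures, and these 3 overlapped between the groups. The ratio of Chek2 was 0.59 higher, at -7.20 to -6.74 with vehicle and -8.00 to -7.24 in WT. Chek2 was the only member for which this ratio was higher in all vehicle-treated than in all WT libraries, by a narrow gap, and 1.18% of all genes were higher without overlap on this scale. The scale uses reads, and the mean transcript length of Chek2 was 836 bases in WT and 1477 bases with vehicle. Its log2 ratio of mean TPM between vehicle and WT was 1.37, below 1.82 for Chek1 and 1.67 for Wee1. Whether Chek2 stands apart per length was not tested. For the other 6 members the ratio was lower without overlap, as for 82.2% of all genes, from -0.41 for Topbp1 and -1.27 for Atr to -2.07 for Hus1. With Igfbp2 against WT the counts were again 1 member higher (Chek2, 0.54), 3 overlapping (Clspn, Chek1 and Wee1) and 6 lower, where 1.74% of all genes were higher and 78.8% lower.

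**Figure D4:**
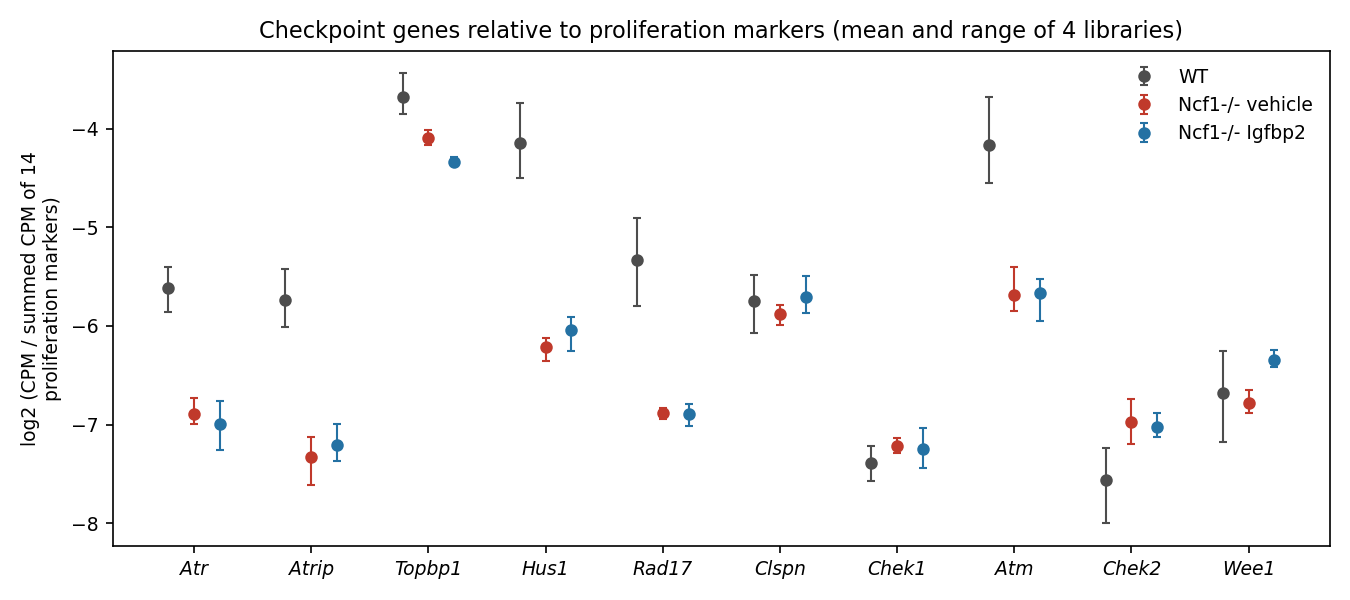
log2 ratio of the CPM of each member to the summed CPM of 14 proliferation markers in the same library (vertical axis), as the mean (point) and range (line) of the 4 libraries of WT (grey), vehicle-treated (red) and Igfbp2-treated (blue) Ncf1-/- cultures. Clspn, Chek1 and Wee1 overlap between WT and Ncf1-/- libraries, Chek2 is higher in Ncf1-/- libraries, and the other 6 members are lower. Ratios are of reads, without correction for transcript length.

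Without WT replicate 4, the members called in Ncf1-/- against WT were 6, with Atr (0.36, adjusted p = 0.0994) the call that was lost. The log2 fold changes of the other 6 were then 1.2 for Topbp1, 1.45 for Clspn, 1.74 for Chek1, 2.23 for Chek2, 1.61 for Wee1 and -0.43 for Hus1. Over all 12 fits with a library left out, this one included, they were 1.15 to 1.33 for Topbp1, 1.32 to 1.66 for Clspn, 1.64 to 2.01 for Chek1, 2.23 to 2.35 for Chek2, 1.49 to 1.69 for Wee1 and -0.49 to -0.31 for Hus1. Those 6 passed in edgeR whichever library was left out (adjusted p at most 0.0308, for Hus1). Between treatments, leaving out WT replicate 4 left the count at 0, and against WT Igfbp2-treated cultures had 6 calls with and without it.

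The profiles of the 2 apical kinases over the 12 libraries were most like those of other genes. Among 11162 genes with a symbol and a mean of at least 5 CPM, the log2 CPM of Atr had the highest Pearson correlation with Hnrnpd (0.908), Cbx5 (0.907) and Gxylt1 (0.907). For Atm these were Rif1 (0.931), Fnbp1l (0.931) and Cul3 (0.928). The 12 points share group and library, and these correlations are a description of likeness.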

How the data were processed

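Reads of rRNA-depleted total RNA were mapped with Bowtie2 and quantified by the authors with RSEM on GRCm38, per the labels and the study's methods, with versions and annotation release not given in the sources used here. The authors deposited, per gene and library, expected counts (not normalized) and TPM, which has the same total in every library. In the merged table the authors gave a score, found to be TPM times the number of transcripts for 100% of 257083 values above 0. It was used for gene symbols alone, and FPKM was not used.

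Expected counts (15.9% not whole) were rounded. Genes were kept by filterByExpr (15706 of 45792, with 99.9% of counts), scaled by TMM and fitted with edgeR 4.0.16 in R 4.3.3 (quasi-likelihood, 1 mean per group, 3 groups, 12 libraries, no covariate). SEs are the log2 fold change over the root of F. P-values were adjusted by Benjamini-Hochberg over all genes and called at 0.05. At these depths the median SE was 0.141 for Ncf1-/- against WT. On simulated counts the model recovered 200 of 200 changed genes with 11 false calls in that comparison (15389 genes, log2 change 1.5). The simulation gave every gene a dispersion of 0.02. It checks that the code runs correctly, and does not measure recovery of smaller changes or false calls in these libraries. Alternatives used limma 3.58.1, DESeq2 1.42.0, other scalings and filters, a Y-linked covariate, and each library left out. Levels between genes are in TPM.

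Groups came from the labels. Each culture came from a separate pup per the study's methods, except that vehicle and Igfbp2 cultures are described as pairs from the same 4 animals, with numbers from the study's sample sheet. Deviations of same-numbered libraries correlated at -0.0585 to 0.0151 (4 pairs), and those of different numbers at -0.214 to 0.219 (12 pairs). The closest replicates differed by more than sampling (chi-square over degrees of freedom 4.63). The members and gene lists were chosen with earlier results of these data known. All 10 members are named in each comparison. Of each list, the 2 called genes with the largest change and a mean of at least 5 CPM are named, and every gene of a count of 5 or fewer. Also named are the 3 genes outside the members most like Atr and Atm.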

Additional observations from a re-analysis of the deposited data

Results flagged for a closer look

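Of 30 sets of 4 libraries (10 genes in 3 groups), 2 held a library apart from the others by Dixon's criterion, which chance meets in about 1 in 20 sets. Atr in vehicle-treated replicate 4 was at 24.5 CPM, with the next library at 17.2 CPM, a gap of 0.912 of the range of the group. The call of Atr against WT was lost without this library, and also without WT replicate 3, WT replicate 4 or Igfbp2-treated replicate 2. Chek2 in WT replicate 1 was at 4.09 CPM, with the next at 3.45 CPM (0.867 of a narrow range), and every vehicle-treated library was at 16.3 CPM or more.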

How the results depend on the processing

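For Ncf1-/- against WT, 212 of 230 member values under an alternative kept their direction and their side of the threshold, 14 lost the call, 3 gained it and 1 turned. For Igfbp2 against vehicle 182 of 240 did, with 23 gained and 35 turned, and for Igfbp2-treated cultures against WT 199 of 230, with 7 lost and 24 turned. No turned value had been called with TMM.

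Members called between treatments (0) became 5 with library totals, 7 on log2(TPM + 1), 6 on log2(TPM + 0.1), 2 in the one-way model on TPM, 3 with voom quality weights, and 1 (Topbp1) with a mean of at least 5 CPM, with only the 2 groups compared and with the replicate block. Of all genes tested, 24.8% were called with a mean of at least 5 CPM, 37.8% with only the 2 groups and 36.0% with the block. Without single libraries the count was 0 to 1. The block changed no other call. Against WT, Igfbp2-treated cultures had 3 calls in the one-way model in place of 6.

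Log2 fold changes between treatments that turned were: with library totals, Atrip -0.26, Clspn -0.19 and Hus1 -0.21; on log2(TPM + 1), Atrip -0.50, Clspn -0.24, Hus1 -0.45 and Wee1 -0.15; on log2(TPM + 0.1), -0.58, -0.28, -0.53 and -0.16; in the one-way model, -0.58, -0.24, -0.54 and -0.16. These scalings also moved the median of all genes below 0. Atrip was 0.00 in DESeq2, -0.01 with DESeq2 size factors, -0.06 with a mean of at least 5 CPM, -0.04 with only the 2 groups and with the replicate block, and -0.05 with voom. Atm was 0.04 with voom and 0.01 with the Y-linked covariate, where Chek1 was 0.07. Against WT, Igfbp2-treated cultures turned for Rad17 (-0.07 with library totals, -0.03 with a mean of at least 5 CPM, -0.01 with only the 2 groups, 0.00 with voom, and -0.32, -0.40 and -0.39 on the TPM scales in the same order), Atm (-0.18, -0.25 and -0.21), Atr (-0.17, -0.29 and -0.27) and Atrip (-0.20, -0.25 and -0.24, and 0.00 with voom). The causes were not tested. With library totals, 8 of 8 clamp and loader, 5 of 9 break and 8 of 10 kinase control genes were called lower between treatments, where 33.5% of all genes were called lower. Calls of the p53 list against WT with Igfbp2 were 4 in place of 2 with library totals and without vehicle-treated replicate 3, Igfbp2-treated replicate 3 or WT replicate 4, and the break list had 2 in place of 1 between treatments without Igfbp2-treated replicate 3 or WT replicate 2.

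Without single libraries, ranges that crossed 0 between treatments were -0.06 to 0.02 for Atrip, -0.13 to 0.19 for Clspn, -0.05 to 0.17 for Hus1 and -0.27 to 0.12 for Atm. Against WT, they were -0.07 to 0.07 for Rad17 and -0.09 to 0.16 for Atm with Igfbp2, and -0.04 to 0.32 for Atm with vehicle. In Ncf1-/- against WT, Clspn lost its call in the one-way model (1.34, adjusted p = 0.107), Atr with voom (0.23, 0.116), the Y-linked covariate (0.39, 0.0631) and the TPM scales (0.34 to 0.54, 0.0713 to 0.31), and Hus1 with library totals (-0.18) and the TPM scales (-0.26 to -0.29, 0.188 to 0.588 over these). Chek1 and Chek2 had 62 to 124 counts per WT library.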
